A study of Mus musculus with 8 samples.

Results

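The genes described here encode 10 E3 ubiquitin ligases, or substrate-binding subunits of such ligases, that are tied to muscle atrophy: Fbxo32, Trim63, Fbxo30, Fbxo21, Fbxo31, Fbxo40, Traf6, Trim32, Nedd4 and Asb2. The rule names them by symbol and uses no measured value, though the choice was made with earlier results of these data known, and each was found through the symbol of its Ensembl mouse gene identifier. They are 10 of 53647 genes counted and of 15603 genes with enough counts to be tested, and all 10 passed that filter. RNA was sequenced from primary mouse myotubes, the multinucleated muscle cells that form when cultured myoblasts fuse. The myoblasts came from limb muscle of wild-type (WT) pups aged 2 to 3 days and were differentiated in medium with 5% horse serum. Cultures then received recombinant interleukin 6 (IL6), leukaemia inhibitory factor (LIF) or oncostatin M (OSM) at 250 ng/ml for 48 h, or served as controls, and every culture was harvested 72 h after differentiation. Each of the 4 groups (control, IL6, LIF, OSM) had 2 libraries. Such cultures have no nerve, blood supply or body-wide hormones, and nothing in the labels ties the 2 libraries of a group to separate animals or dishes, so p-values measure the spread between these libraries, which may be technical.

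An E3 ubiquitin ligase brings a chosen protein together with ubiquitin that an E1 and an E2 enzyme have activated. Chains of ubiquitin then send the protein to the proteasome or change its signalling. Fbxo32 (atrogin-1) and Trim63 (MuRF1) are the ligase genes best known for rising in wasting muscle, where FoxO, NF-kappaB, glucocorticoid receptor and C/EBP factors are known to act on their transcription. OSM, LIF and IL6 share the receptor subunit gp130 and signal through JAK kinases and STAT3.

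With OSM, 3 of the 10 genes were called against control, all higher, where 21.4% of all tested genes were called and 10.8% were called higher. A gene was called where its p-value, adjusted over all genes tested by the method of Benjamini and Hochberg, was under 0.05 in edgeR's quasi-likelihood test. Fbxo32 had the largest change of the 10, with a level 2.25 times that of control. Fbxo30 and Fbxo31, which also encode F-box proteins, rose by 21.5% and 19.2%. With LIF, 2 of the 10 were called, Fbxo32 and the striated muscle gene Fbxo40, both higher, where 7.66% of all genes were called and 4.2% were called higher. With IL6, edgeR called 0 of the 10 and 0 of all genes (0%), and none of the 10 had an unadjusted p under 0.05, as 5.1% of all genes did (795 genes), while DESeq2's Wald test called 0 of the 10 and 19 of all genes. Trim63 was not called with any of the 3 cytokines.

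Libraries were close in depth, with 29482077 to 30025471 counts assigned to genes, and the replicates of a group correlated at 0.992 to 0.995 (Pearson, log2 CPM). Myotube markers (8 genes) summed to 21393 to 22307 CPM (counts per 1000000 counts, with library totals scaled by TMM) in control libraries, 18357 to 20834 with IL6, 19268 to 20511 with LIF and 18756 to 18857 with OSM. All 8 were lower with OSM on the fitted scale, with a median log2 change of −0.21, and 2 of them, Tnni2 and Myh8, were called. All 8 were lower with LIF (median −0.12, with Myh8 called) and with IL6 as well (median −0.15, with 0 called by edgeR or DESeq2 and 3 at an unadjusted p under 0.05). The calls of Myh8 were lost without any 1 of the control, LIF or OSM libraries. Markers of undifferentiated myoblasts (4 genes) summed to 186 to 200.4 CPM in control, 187 to 203 with IL6, 211 to 214 with LIF and 207 to 223 with OSM. With OSM the single genes moved in both directions. Pax7 (log2 0.39, adjusted p = 0.000852) and Myf5 (0.82, adjusted p = 0.0316) rose, Cd34 fell by 0.76 (adjusted p = 0.000449), and Cdh15 was not called (0.19, adjusted p = 0.127). The call of Myf5 was lost in DESeq2's Wald test and without control replicate 1 or OSM replicate 1. Fibroblast markers (6 genes, 1 at 0 in every library) summed to 183 to 320.3 CPM in control, 103 to 174 with IL6, 133 to 196 with LIF and 87.4 to 103 with OSM. Col1a1 made up most of that sum, at 239 ± 98.6 CPM in control and 78.4 ± 8.90 CPM with OSM (log2 −1.61, adjusted p = 0.0858). The other 3 that could be tested were higher with OSM, and Pdgfra was called (0.53, adjusted p = 0.0193), a call lost without control replicate 1 or OSM replicate 2. Macrophage markers (5 genes) summed to 2.06 to 2.32 CPM in control, 2.77 to 2.98 with IL6, 2.69 to 2.75 with LIF and 4.09 to 4.62 with OSM. Nearly all of the control and OSM sums was Cd68, which rose with OSM from 1.98 ± 0.186 to 4.05 ± 0.319 CPM (log2 1.03, adjusted p = 0.00186). Cd68 was not called with IL6 (log2 0.36) or LIF (0.31). Fabp4, the adipocyte marker that could be tested, rose from 0.424 ± 0.0655 to 1.37 ± 0.186 CPM (log2 1.68, adjusted p = 0.0104), a call lost without control replicate 1 or OSM replicate 1. It was also higher with OSM than with LIF (1.82, adjusted p = 0.0155) or IL6 (1.65, adjusted p = 0.0142). The 4 other macrophage markers, and 2 genes each of the endothelial, adipocyte and Schwann cell lists, stayed under 10 counts in every library. The part of these shifts in the results below was not tested, and in whole cultures fewer cells of a type and less RNA per cell cannot be told apart.

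The sequence before the start of transcription is shown for Trim63, which did not pass the test, and for 3 F-box genes that did with OSM or LIF. This choice rests on the calls in these data, and a link between the letters and the response was not tested. RefSeq's promoter table (GRCm38.p6) held 9 of the 10 genes by symbol, with 12 starts, and did not list Fbxo32. Each line gives the 250 bases before a start, 5′ to 3′ on the gene's strand, for Fbxo40 at the upstream of its 2 starts. Capitals mark matches, on either strand, to the letters GTAAACA (known from FoxO sites), TTCNNNGAA (STAT sites), TTGCNNAA (C/EBP sites) and CANNTG (E-boxes, which myogenic factors bind). No match overlapped another in these 4 windows.
Trim63, chr4:134314870-134315119, plus strand: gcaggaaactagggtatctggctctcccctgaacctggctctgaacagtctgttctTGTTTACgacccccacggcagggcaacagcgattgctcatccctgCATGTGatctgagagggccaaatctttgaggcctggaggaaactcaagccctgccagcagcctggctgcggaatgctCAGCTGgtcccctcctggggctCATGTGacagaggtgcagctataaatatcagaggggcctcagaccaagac
Fbxo30, chr10:11281337-11281586, plus strand: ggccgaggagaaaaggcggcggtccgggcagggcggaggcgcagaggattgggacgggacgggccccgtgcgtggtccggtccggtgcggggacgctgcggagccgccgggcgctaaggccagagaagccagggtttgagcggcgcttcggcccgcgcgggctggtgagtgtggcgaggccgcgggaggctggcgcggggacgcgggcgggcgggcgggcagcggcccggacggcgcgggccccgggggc
Fbxo31, chr8:121578807-121579056, minus strand: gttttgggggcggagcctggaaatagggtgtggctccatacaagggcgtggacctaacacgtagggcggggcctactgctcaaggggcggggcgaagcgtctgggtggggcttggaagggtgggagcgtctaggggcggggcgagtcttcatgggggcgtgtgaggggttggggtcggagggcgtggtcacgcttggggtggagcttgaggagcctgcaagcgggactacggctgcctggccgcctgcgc
Fbxo40, chr16:36990468-36990717, minus strand: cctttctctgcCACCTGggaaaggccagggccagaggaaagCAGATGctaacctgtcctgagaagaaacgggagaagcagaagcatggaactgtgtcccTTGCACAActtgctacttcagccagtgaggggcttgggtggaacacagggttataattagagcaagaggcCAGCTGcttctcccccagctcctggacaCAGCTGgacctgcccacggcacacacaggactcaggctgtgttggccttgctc

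The Trim63 window held the FOXO letters, as TGTTTAC with its first base 194 bases before the start, and 3 E-boxes. It was the one member start of 12 with those letters, which 3.17% of the 32851 starts in the table have. The Fbxo30 and Fbxo31 windows, with GC contents of 80.4% and 68.0%, held none of the 4 motifs. The upstream Fbxo40 window held the C/EBP letters and 4 E-boxes, while the window of its downstream start held 2 E-boxes and no C/EBP letters. Over all 12 starts the C/EBP letters were in 3 and E-boxes in 7, against 9.56% and 66.2% of all starts. The STAT letters were in 1 of 12 starts, the downstream start of Nedd4, against 7.02% of all starts. A match is a description of the letters and not a measured site.

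Fbxo32 encodes the substrate-binding subunit of a Skp1-Cul1-F-box ligase, and MyoD and the translation factor eIF3f are among its reported substrates. Its level was 55.3 and 62.8 CPM in the control libraries, 64.4 and 61.8 CPM with IL6, 79.0 and 80.7 CPM with LIF, and 137 and 129 CPM with OSM. Both OSM libraries lay above both LIF libraries, which lay above all 4 control and IL6 libraries, while control and IL6 overlapped. Means were 59.0 ± 5.29 CPM in control and 133 ± 5.57 CPM with OSM (SD, n = 2). The log2 change from control to OSM was 1.17 (SE 0.071, 95% CI 1.02 to 1.32, adjusted p = 1.02e-07). It ranked 343 of 15603 genes by size of increase and 58 by p-value.

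With LIF the log2 change of Fbxo32 was 0.44 (SE 0.071, 95% CI 0.28 to 0.59, adjusted p = 0.00240), or 35.3% above control. With IL6 it was 0.10 (SE 0.072, 95% CI −0.06 to 0.25, adjusted p = 0.950), a change of −3.99% to 19.1% relative to control. The level with OSM was 1.67 times that with LIF (log2 0.74, SE 0.070, adjusted p = 2.56e-05) and 2.11 times that with IL6 (log2 1.08, SE 0.070, adjusted p = 2.82e-07). The order of levels was therefore control and IL6, which did not differ beyond their spread, then LIF, then OSM. The 4 calls of OSM or LIF against control and of OSM against LIF or IL6 held in all 14 alternative fits. LIF against IL6 was called as well (log2 0.34, adjusted p = 0.0233), but that call was lost without LIF replicate 1 (adjusted p = 0.181), LIF replicate 2 (0.236), OSM replicate 1 (0.0571) or OSM replicate 2 (0.0570). In the GRCm38 annotation 2.67% of the exon bases of Fbxo32 overlap Gm15943 on the opposite strand, and 2.57% of its 50-base stretches occur in another gene. For the other 9 genes no exon base overlaps another gene, and under 1% of such stretches are shared.

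**Figure D1:**
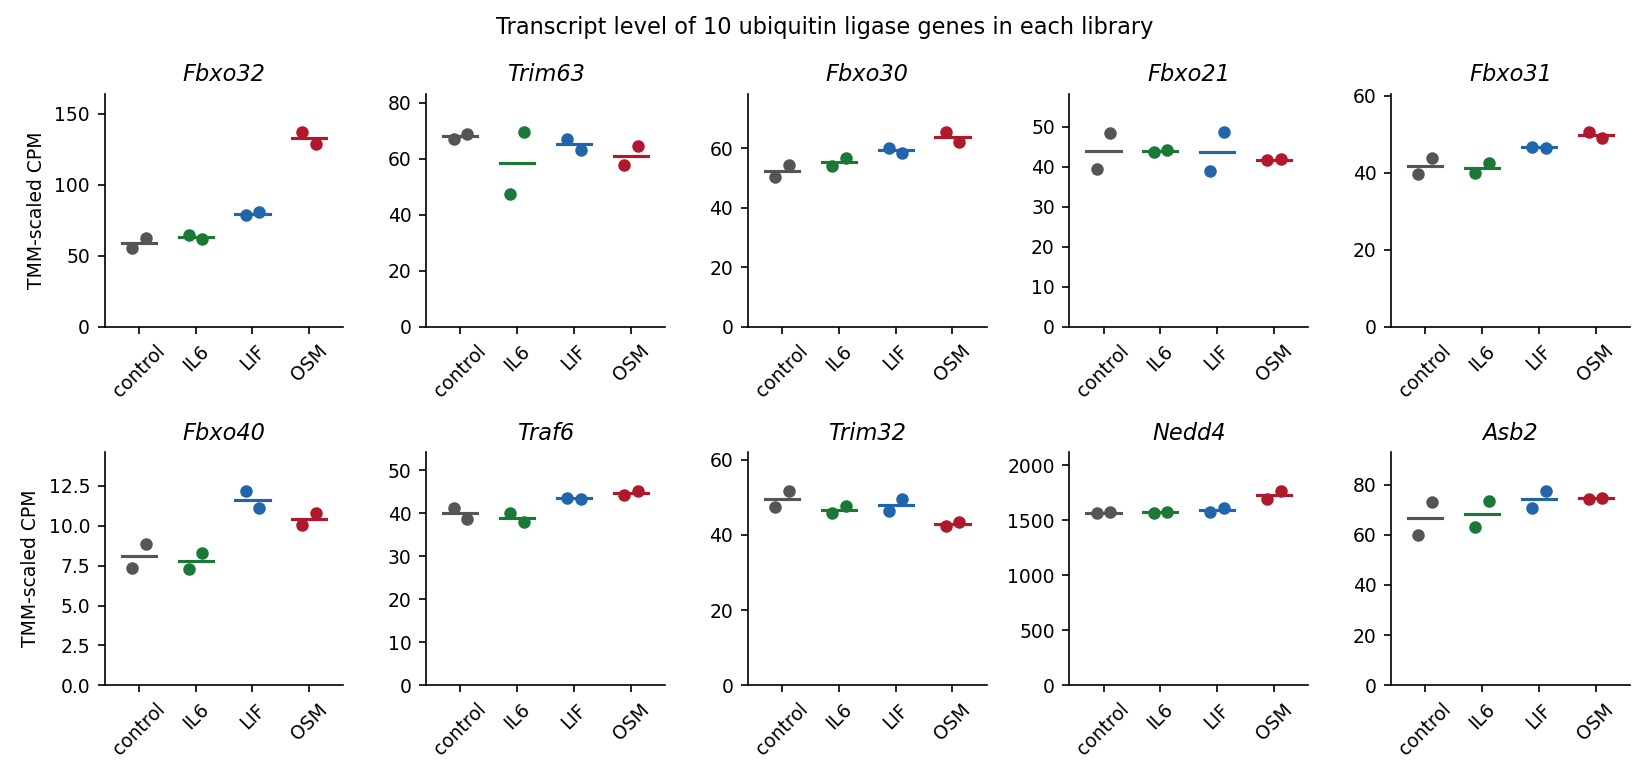
Level of each ligase gene in each library, in TMM-scaled CPM (vertical axes from 0, a different range for each gene). Points are libraries, 2 for each of control, IL6, LIF and OSM, and bars are group means. Fbxo32 climbs from 55.3 and 62.8 CPM in control to 137 and 129 CPM with OSM, and Trim63 has 1 low IL6 library at 47.6 CPM. Fbxo40 runs from 7.28 to 12.2 CPM, highest with LIF, and the remaining genes move within ranges that are narrower for their level.

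With OSM the remaining F-box genes changed less than Fbxo32. With LIF the fitted log2 change of Fbxo40 from control (0.52) was larger than that of Fbxo32 (0.44). Fbxo30 encodes MUSA1, a ligase subunit known from denervated muscle, where BMP signalling holds it down. It was at 50.4 and 54.6 CPM in control, 54.1 and 56.8 with IL6, 60.1 and 58.5 with LIF, and 65.4 and 62.2 with OSM. All 4 LIF and OSM libraries lay above all 4 control and IL6 libraries. Only the change with OSM passed the test (log2 0.28, SE 0.068, 95% CI 0.13 to 0.43, adjusted p = 0.0100). That call was lost without control replicate 1 (adjusted p = 0.0825) or OSM replicate 1 (0.109). With LIF the log2 change was 0.18 (adjusted p = 0.157) and with IL6 0.08 (adjusted p = 0.950).

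Fbxo31 encodes an F-box protein known for the turnover of cyclin D1. Its libraries read 39.7 and 43.9 CPM in control, 39.8 and 42.6 with IL6, 46.8 and 46.5 with LIF, and 50.5 and 49.1 with OSM. As for Fbxo30, both LIF and both OSM libraries were above every control and IL6 library. The change with OSM was 0.25 on the log2 scale against control (SE 0.073, 95% CI 0.10 to 0.41, adjusted p = 0.0253) and 0.27 against IL6 (adjusted p = 0.0217). The call against control was lost without control replicate 1 (adjusted p = 0.179), LIF replicate 1 or 2 (0.0512 each), OSM replicate 1 (0.158) or OSM replicate 2 (0.0885). The call against IL6 was lost without IL6 replicate 1 (0.0851), OSM replicate 1 (0.154) or OSM replicate 2 (0.0866). With LIF the log2 change from control was 0.16 (adjusted p = 0.238).

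Fbxo40, a striated muscle gene whose product is known to act on the insulin receptor substrate IRS1, had the fewest reads of the 10, with 215 to 362 counts in a library. Counting error alone is 5.26% to 6.82% of such counts. The gene stood at 7.38 and 8.86 CPM in control, 7.28 and 8.30 with IL6, 12.2 and 11.1 with LIF, and 10.02 and 10.8 with OSM. The LIF libraries were the highest pair and did not overlap any other group. With LIF, Fbxo40 rose by 0.52 on the log2 scale against control (SE 0.130, 95% CI 0.24 to 0.80, adjusted p = 0.0278) and by 0.58 against IL6 (adjusted p = 0.0342). Against control this call was lost without control replicate 1 (adjusted p = 0.174), LIF replicate 1 (0.235), LIF replicate 2 (0.111), OSM replicate 1 (0.0532) or OSM replicate 2 (0.0534). Against IL6 it was lost without IL6 replicate 1 (0.127), LIF replicate 1 (0.313), LIF replicate 2 (0.159), OSM replicate 1 (0.0727) or OSM replicate 2 (0.0729). With OSM the change from control was 0.36 (SE 0.131, adjusted p = 0.0710), which missed the threshold. It passed without control replicate 2 (0.0391), IL6 replicate 1 (0.0452) or IL6 replicate 2 (0.0473) and with a term for the replicate number (0.0448). OSM and LIF did not differ in the test for Fbxo40 (log2 −0.16, 95% CI −0.43 to 0.12, adjusted p = 0.550), an interval that does not show equal levels.

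Fbxo21 encodes a further F-box protein that is known from denervated muscle. It ranged from 39.0 to 48.6 CPM, and the lowest and the highest value were the 2 LIF libraries. Its log2 change with OSM was −0.07 (SE 0.109, 95% CI −0.31 to 0.16, adjusted p = 0.695). In control, IL6 and LIF its mean was 43.8 to 43.9 CPM.

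Trim63 encodes a RING-type ligase that is known to act on thick filament proteins such as myosin heavy chain and myosin-binding protein C. It was at 67.1 and 68.9 CPM in control, 47.6 and 69.4 with IL6, 67.0 and 63.1 with LIF, and 57.7 and 64.5 with OSM. Both OSM libraries were below both control libraries, and the IL6 pair held the lowest and the highest value of the 8. The log2 change with OSM was −0.15 (SE 0.142, 95% CI −0.47 to 0.17, adjusted p = 0.501), a change of −28.1% to 12.1% relative to control. Its upper end lies far under the 125% rise of Fbxo32. With LIF the change was −0.06 (adjusted p = 0.866). With IL6 it was −0.22 (adjusted p = 0.947), and IL6 replicate 1 decided the value. Without IL6 replicate 2 the change was −0.52 (adjusted p = 0.00947), and without IL6 replicate 1 it was 0.03. IL6 replicate 1 was also the lowest of the 8 libraries for the myotube genes Acta1, at 4397 CPM, and Ckm, at 74.5 CPM. These are 2 of the 8 myotube markers, named after their values were seen, and the other markers are not given by library here.

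Reads of Fbxo32 per read of Trim63 within a library numbered 0.824 and 0.910 in control, 1.35 and 0.891 with IL6, 1.18 and 1.28 with LIF, and 2.37 and 2.00 with OSM. Every LIF and OSM library was above both control libraries, and the high IL6 value is the library with low Trim63.

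Trim32, another RING-type ligase, is known to act on desmin filaments and on thin filament proteins, and mutations in the human gene cause a limb-girdle muscular dystrophy. Control libraries held 47.5 and 51.7 CPM, IL6 libraries 45.8 and 47.6, LIF libraries 46.2 and 49.5, and OSM libraries 42.3 and 43.4. The OSM pair was below every other library. Its log2 change from control was −0.21 (SE 0.072, 95% CI −0.37 to −0.06, adjusted p = 0.0539), just outside the threshold. The change passed without control replicate 1 (adjusted p = 0.0451), IL6 replicate 1 (0.0429) or IL6 replicate 2 (0.0364), and with a term for the replicate number (0.0269).

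Traf6 encodes a RING-type ligase that builds ubiquitin chains for NF-kappaB signalling. Its range over all libraries was 38.01 to 45.2 CPM, with the LIF and OSM libraries (43.3 to 45.2 CPM) above the control and IL6 libraries (38.01 to 41.3 CPM). No comparison of Traf6 passed the test: the log2 change with OSM was 0.16 (SE 0.070, adjusted p = 0.119) and with LIF 0.12 (adjusted p = 0.375).

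Nedd4, a HECT-type ligase that takes up ubiquitin itself before passing it on, had by far the most reads of the 10, with 45618 to 52696 counts in a library. Levels were 1565 and 1575 CPM in control, 1571 and 1578 with IL6, 1577 and 1617 with LIF, and 1696 and 1768 with OSM. The OSM pair lay above the other 6 libraries, which spanned a narrow range. The change with OSM was 0.14 (SE 0.059, 95% CI 0.01 to 0.27), or 10.3% above control, and was not called (adjusted p = 0.111).

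Asb2 encodes a substrate receptor with ankyrin repeats and a SOCS box that works with Cul5 and is known to target filamins. It was at 59.8 and 73.2 CPM in control, 63.0 and 73.3 with IL6, 70.8 and 77.5 with LIF, and 74.2 and 74.7 with OSM. The lowest control library lay under all LIF and OSM libraries and the highest control library did not. Its change with OSM was 0.16 (SE 0.098, adjusted p = 0.278), which became 0.33 (adjusted p = 0.0314) without control replicate 2.

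**Figure D2:**
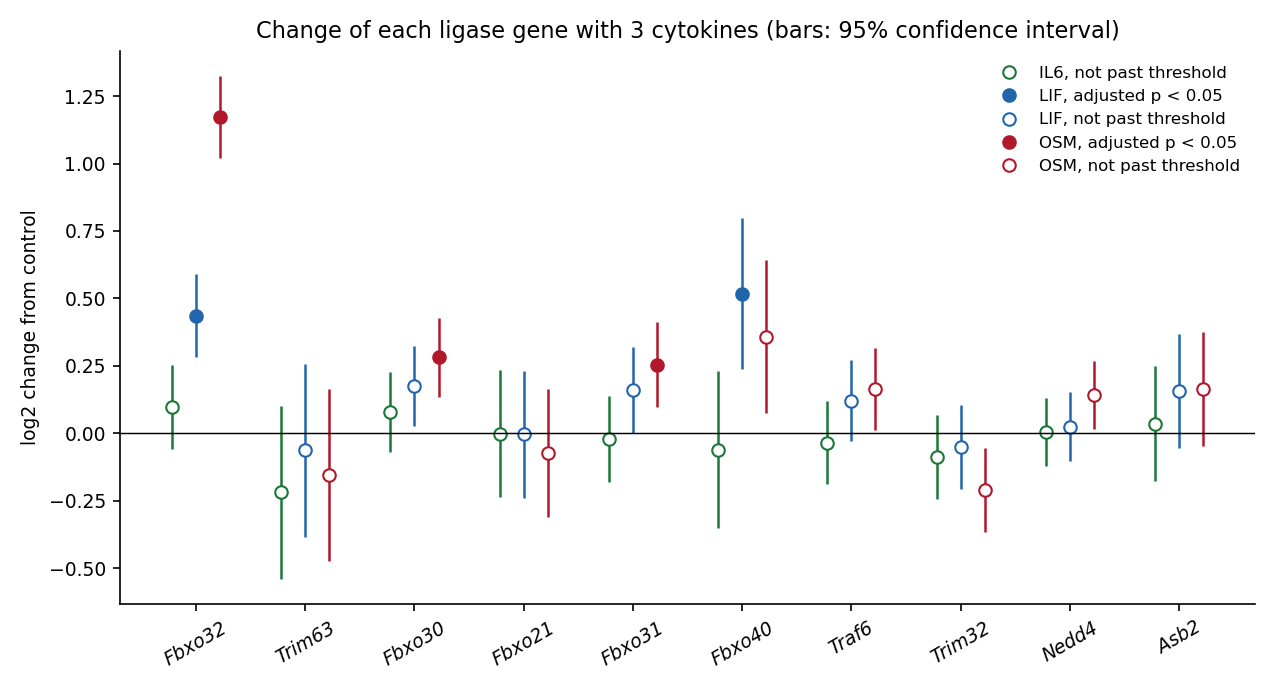
Log2 change of each ligase gene from control with IL6, LIF and OSM (vertical axis), with bars for the 95% confidence interval of the edgeR fit. Filled points have an adjusted p under 0.05. Fbxo32 with OSM, at 1.17, stands above all other points, and the intervals of Trim63 with all 3 cytokines cross 0.

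Set against all genes, most of the 10 were higher with OSM and LIF, 7 of 10 in each case. Their median log2 change was 0.16 with OSM, 0.14 with LIF and −0.01 with IL6, where the medians over all 15603 tested genes were −0.0029, −0.0079 and 0.0006. These 3 comparisons share the control libraries. In OSM against control, 7 of the 10 had an unadjusted p under 0.05, as did 32.8% of all genes, and 9 had libraries that did not overlap between the groups, as did 60.9% of all genes. In LIF against control 4 had an unadjusted p under 0.05 (20.5% of all genes) and 7 did not overlap (52.0%). In IL6 against control, all 10 overlapped, where 28.2% of all genes did not.

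The cytokines were also compared with each other. OSM against LIF called 1 of the 10, Fbxo32, higher with OSM, where 8.04% of all genes were called and 4.01% were called higher. OSM against IL6 called 3, Fbxo32, Fbxo31 and Fbxo40, all higher with OSM, where 15.5% of all genes were called and 8.02% were called higher. There the call of Fbxo40 (log2 0.42, SE 0.132, adjusted p = 0.0465) was lost in DESeq2's Wald test (adjusted p = 0.0814) and in a fit of the 2 groups alone (0.0653). It was also lost without IL6 replicate 1 (0.174), LIF replicate 1 (0.0769), LIF replicate 2 (0.0762), OSM replicate 1 (0.129) or OSM replicate 2 (0.237). LIF against IL6 called 2, Fbxo32 and Fbxo40, both higher with LIF, where 2.78% of all genes were called and 1.76% were called higher.

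**Figure D3:**
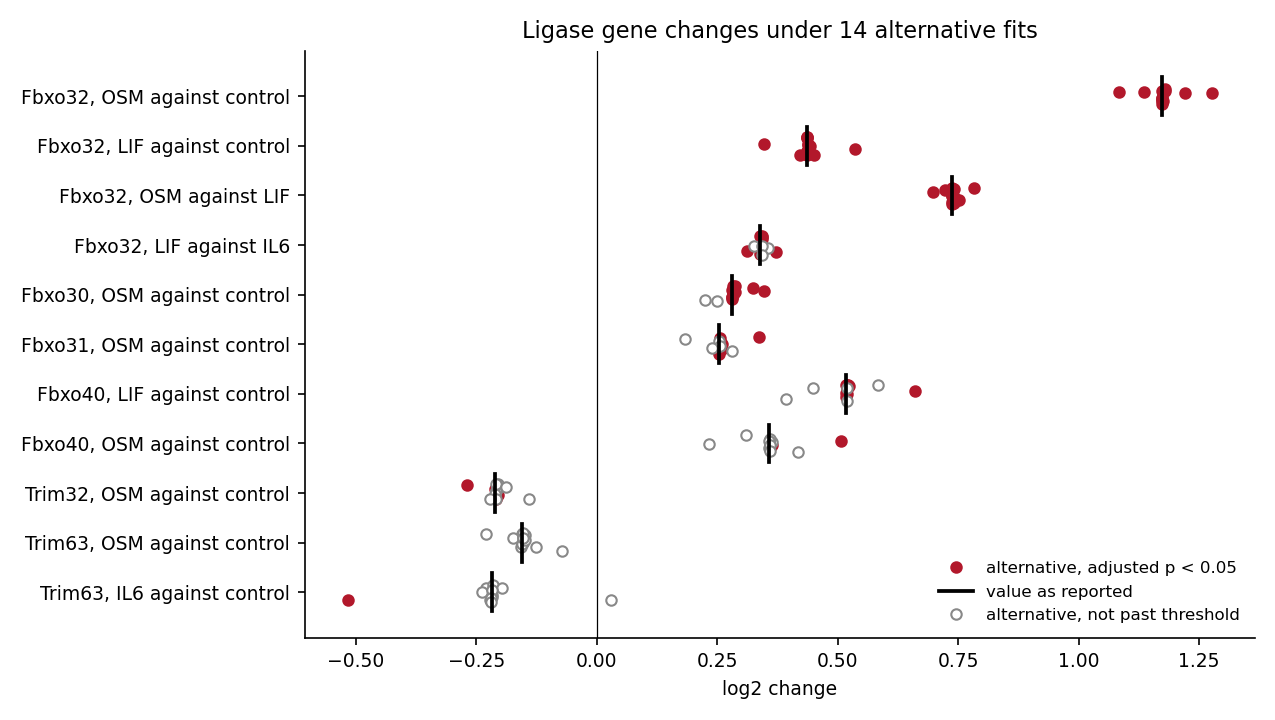
Log2 change of selected ligase genes (horizontal axis) as reported (black bars) and in 14 alternative fits (points, filled where the adjusted p was under 0.05). Fbxo32 stays called throughout in the first 3 comparisons, while points for Fbxo30, Fbxo31 and Fbxo40 lie on both sides of the threshold and Trim63 with IL6 spreads from −0.52 to 0.03.

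Levels can be compared between genes only per length of transcript. Per kilobase of exon, Nedd4 was highest in control at 143 ± 0.656 CPM per kb (SD, n = 2), followed by Trim63 at 23.9 ± 0.462 and Asb2 at 18.8 ± 2.69. Trim32 stood at 15.4 ± 0.910, Fbxo30 at 10.1 ± 0.562, Fbxo32 at 8.46 ± 0.758, Fbxo21 at 7.92 ± 1.13, Fbxo31 at 7.62 ± 0.540, Traf6 at 5.07 ± 0.245 and Fbxo40 at 1.47 ± 0.191. The SD ranges of Fbxo32, Fbxo21 and Fbxo31 overlapped in control, but differences between these genes were not tested. Each was lower in control replicate 1 than in control replicate 2, so their SDs share a difference between libraries. With OSM, Fbxo32 reached 19.1 ± 0.799 CPM per kb, above Fbxo30 (12.3 ± 0.439) and Trim32 (13.3 ± 0.220), and just under Asb2 (21.03 ± 0.0991) and Trim63 (21.5 ± 1.68). Exon lengths come from the GRCm38 annotation, so these levels assume the same exons in the annotation used for counting.

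**Figure D4:**
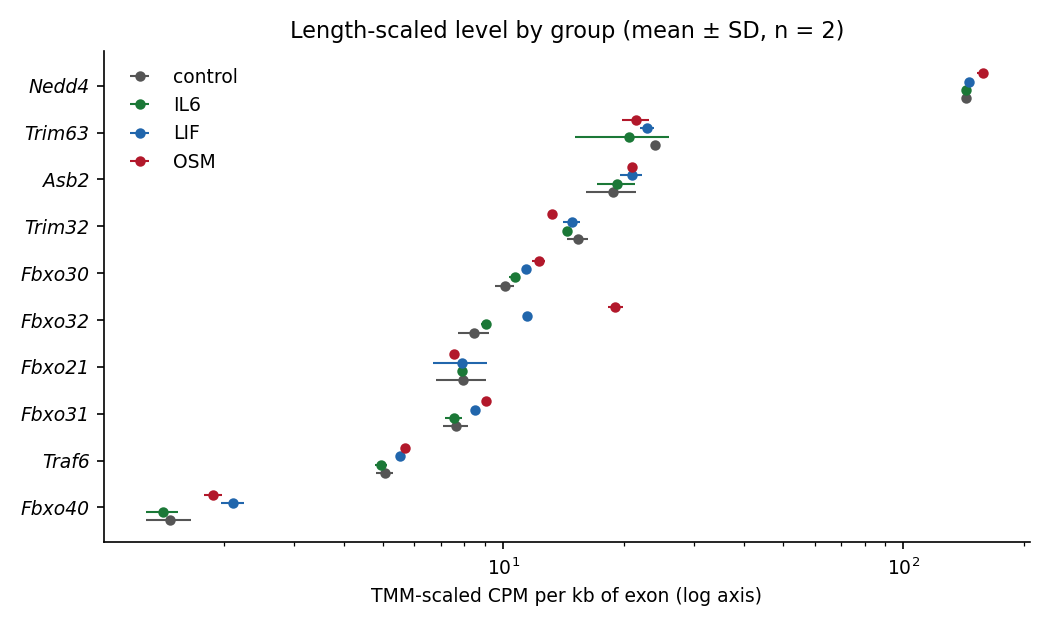
Level per kilobase of exon (CPM per kb, log axis) of each ligase gene in the 4 groups, as mean with bars for the SD of 2 libraries. Nedd4 lies far above the rest at 143 to 158 CPM per kb, Fbxo40 lies lowest at 1.41 to 2.11, and Fbxo32 moves up the order with OSM to 19.1.

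Genes whose levels followed a ligase most closely were sought by Pearson correlation of log2 CPM over the 8 libraries, among 10869 named genes with at least 100 counts on average. The 5 nearest to Fbxo32 were Acox3 (0.997), Bmp1 (0.997), Anpep (0.995), Samhd1 (0.994) and Tmed3 (0.993). Their log2 changes with OSM ran from 0.61 for Acox3 to 2.51 for Anpep, with 0.66 for Tmed3, 1.19 for Samhd1 and 1.35 for Bmp1, beside 1.17 for Fbxo32. The 5 nearest to Trim63 were Fam120a (0.972), Nfic (0.962), Tmem129 (0.962), Serpinh1 (0.957) and Samd1 (0.948). None of these 5 moved with OSM by more than 0.10 in either direction. Trim63 was at 47.6 CPM in IL6 replicate 1 and at 57.7 to 69.4 CPM in the other libraries, so that library weighs heavily in its correlations. All 5 genes had their lowest change from control with IL6 (log2 −0.14 to −0.08). How far IL6 replicate 1 sets this list was not tested. Among the ligase genes, the highest correlation over the 8 libraries was that of Fbxo30 and Fbxo31 (0.943), followed by Fbxo32 with Nedd4 (0.924), Fbxo30 (0.916) and Fbxo31 (0.900). Fbxo32 and Trim63 correlated at −0.15, and Fbxo32 and Trim32 at −0.76. The 8 points come from 4 groups of 2 and are not independent, so these values are descriptions.

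The rest of the ubiquitin system was read from lists written for this purpose, and their counts with OSM can be set beside the 21.4% of all tested genes called and the 10.8% called higher. Of 9 scaffold and adaptor genes that work with these ligases (cullins, Skp1 and the like), 1 was called with OSM, the scaffold Cul1 of the F-box ligases, which rose by 0.25 (SE 0.071, adjusted p = 0.0214). The median of the 9 was 0.04. Skp1, the adaptor between Cul1 and F-box proteins, was at 246 ± 14.2 CPM in control and 271 ± 1.39 CPM with OSM (log2 0.14, adjusted p = 0.139). Among 25 other ligase genes with known roles in muscle, 4 rose with OSM, the others did not pass the test, and the median was 0.04. The 4 were Fbxl22 (0.85, adjusted p = 0.0191), Asb11 (0.73, adjusted p = 0.0245), Asb5 (0.23, adjusted p = 0.0244) and Klhl41 (0.22, adjusted p = 0.0414), the last named after its values were seen. Fbxl22 encodes an F-box protein of the sarcomere, Asb11 and Asb5 are relatives of Asb2, and Klhl41 encodes a substrate adaptor of Cul3. Fbxl22 went from 8.72 ± 2.24 to 15.7 ± 3.83 CPM, and Asb11, at 2.12 ± 0.184 CPM in control, was a low gene. Asb5 also rose with LIF (0.45, adjusted p = 0.00124), a call held in all 14 alternatives, and OSM against LIF did not pass the test (−0.22, adjusted p = 0.0673). The OSM calls of Cul1 and of these 4 genes were each lost when at least 1 control or OSM library was left out.

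Of 21 genes for ubiquitin, E1 and E2 enzymes, 3 were called with OSM, where 21.4% of all tested genes were, and changes ran from −0.41 to 0.19. Those that rose were the E2 gene Ube2j1 (0.19, adjusted p = 0.0390) and the E1 gene Uba6 (0.19, adjusted p = 0.0478), and the ubiquitin gene Ubb fell (−0.22, adjusted p = 0.0267). Each of these 3 calls was lost when at least 1 control or OSM library was left out. Ube2j1 and Uba6 were also lost in DESeq2's Wald test, and Uba6, called in 4 of 14 alternatives, without the low-count filter, without robust estimation and in a fit of the 2 groups alone. OSM against LIF called Ube2v1 (−0.63, adjusted p = 0.0332) and Ube2b (0.23, adjusted p = 0.0240), both named after their values were seen and both lost without any 1 of the LIF or OSM libraries. Of 31 proteasome subunit genes, 2 rose and 3 fell with OSM, a smaller share than the 21.4% of all tested genes. Fitted values of 26 of the 31 were below control, with a median of −0.09, and most of these did not pass the test. Those that fell were Psmd14 (−0.32, adjusted p = 0.00377), a deubiquitinase subunit of the lid, Psmb3 (−0.31, adjusted p = 0.0117) and Psma2 (−0.18, adjusted p = 0.0412), both of the core particle. Those that rose were Psmd8 (0.23, adjusted p = 0.0171) and Psmc3 (0.19, adjusted p = 0.0445), of the regulatory particle. Psmd14 held its call in all 14 alternatives, and the other 4 were each lost without at least 1 control or OSM library. With LIF, edgeR called 0 of the 31, as did DESeq2, and 1 had an unadjusted p under 0.05.

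Of 12 deubiquitinase genes, 4 fell and 2 rose with OSM, where 21.4% of all tested genes were called, and the median was −0.12. Usp1, which acts on DNA repair proteins, fell from 39.6 ± 1.15 CPM in control to 20.4 ± 0.613 CPM (log2 −0.96, SE 0.079, adjusted p = 1.45e-06), and it was also lower with OSM than with LIF (−0.67, adjusted p = 0.000129). Uchl3 fell by 0.44 (adjusted p = 0.00231) and Uchl5, of the proteasome, by 0.31 (adjusted p = 0.0328). Usp13 rose by 0.35 (adjusted p = 0.00460) and Usp19, known from wasting muscle, by 0.19 (adjusted p = 0.0452). The calls of Usp1, Uchl3 and Usp13 held in all 14 alternatives, and those of Uchl5 and Usp19 were lost without control replicate 1, OSM replicate 1 or OSM replicate 2, among other settings.

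**Figure D5:**
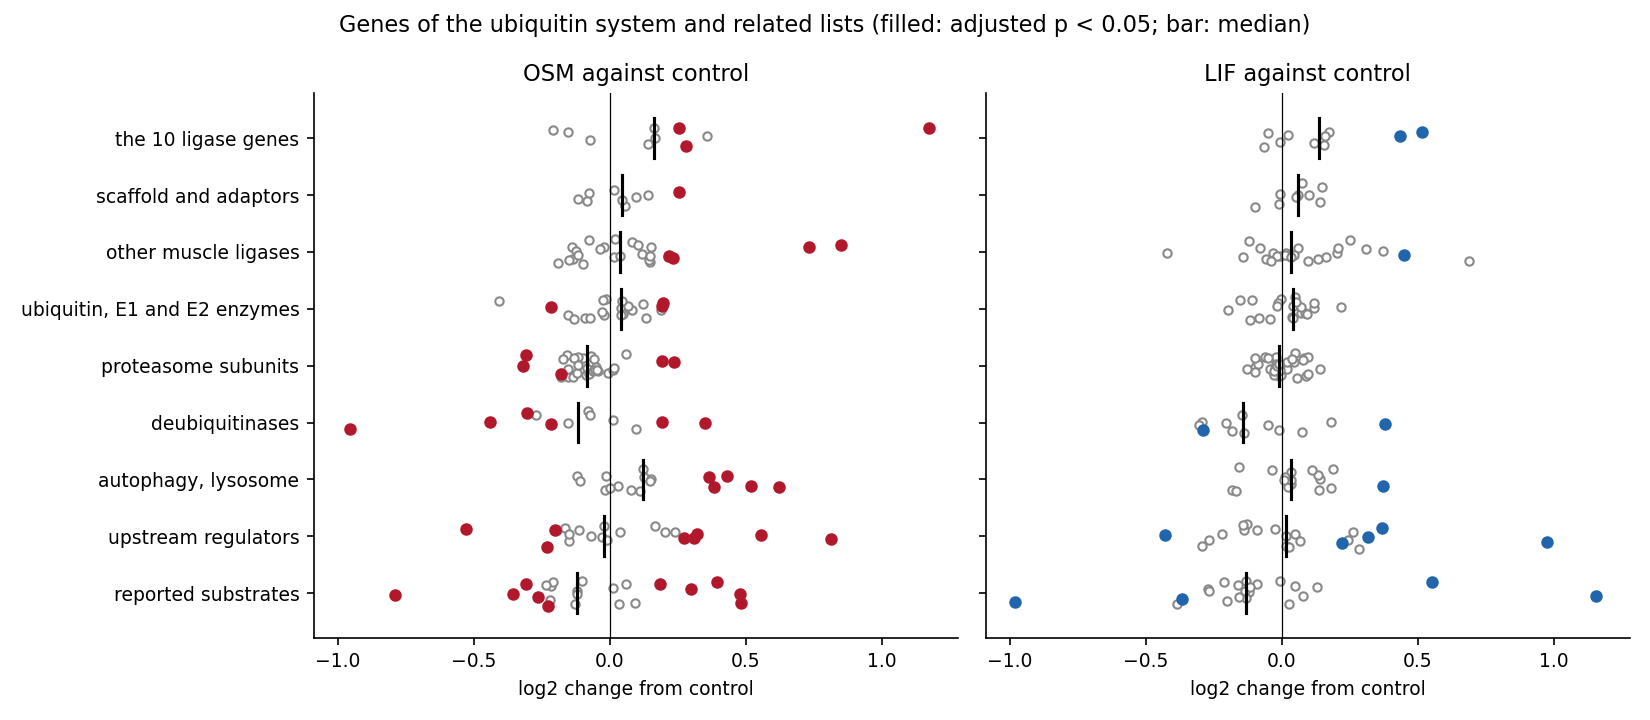
Log2 change from control (horizontal axes) with OSM (left) and LIF (right) of each tested gene in 9 lists. Filled points have an adjusted p under 0.05 and black bars are list medians. The ligase genes have a median of 0.16 with OSM and Fbxo32 at 1.17, the proteasome genes lie mostly just below 0, and the lowest deubiquitinase is Usp1 at −0.96.

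Transcription factors and signal genes known to act on ligase transcription changed in both directions. Of 21 tested, 5 rose and 3 fell with OSM, where 21.4% of all tested genes were called, and the median was −0.02. Cebpd, a C/EBP factor, rose from 16.7 ± 0.304 to 29.4 ± 0.879 CPM (log2 0.81, SE 0.172, adjusted p = 0.00768), and with LIF it rose by 0.98 (adjusted p = 0.00720). Rela, an NF-kappaB subunit, rose by 0.55 (adjusted p = 0.000178) and Relb by 0.32 (adjusted p = 0.0329). Myog, a myogenic factor reported to act on Fbxo32 and Trim63 after denervation, fell from 1133 ± 169 to 786 ± 47.7 CPM (log2 −0.53, adjusted p = 0.000696), and with LIF by 0.43 (adjusted p = 0.00826). Hdac4, which acts upstream of Myog, fell by 0.23 (adjusted p = 0.0360), and Foxo1 fell by 0.20 (adjusted p = 0.0487). The calls of Rela and Myog with OSM held in all 14 alternatives. With LIF, the call of Myog was lost without either LIF library and that of Cebpd without either control library or LIF replicate 2. The OSM calls of Cebpd, Relb, Hdac4 and Foxo1 were lost without control replicate 1 or control replicate 2. Relb, Hdac4 and Foxo1 also lost theirs in DESeq2's Wald test and without either LIF library or OSM replicate 1, Hdac4 and Foxo1 without OSM replicate 2, and Foxo1 with DESeq2's size factors and without robust estimation. Nr3c1, the glucocorticoid receptor gene (0.31, adjusted p = 0.00168), and Stat3 (0.27, adjusted p = 0.00381) were the other 2 that rose and are named after their values were seen. Nr3c1 held its call in all 14 alternatives and Stat3 lost it without OSM replicate 1. Klf15, with 1 to 6 counts in a library, was not tested.

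Genes of reported substrates were split. Of 22 tested, 5 rose and 5 fell with OSM, where 21.4% of all tested genes were called, and the median was −0.12. Mybpc2, a thick filament gene, rose by 0.48 (adjusted p = 0.0344) and with LIF by 1.16 (adjusted p = 0.000386). It was lower with OSM than with LIF (−0.68, adjusted p = 0.00871), a call lost without LIF replicate 1 or OSM replicate 1. Flna, a filamin reported as a target of Asb2, rose by 0.48 (adjusted p = 0.0201), and Pax7, a satellite cell factor reported as a target of Nedd4, by 0.39 (adjusted p = 0.000852). Ccnd1, the cyclin gene tied to Fbxo31, fell from 117 ± 7.26 to 67.9 ± 3.27 CPM (log2 −0.79, adjusted p = 1.30e-05) and with LIF by 0.98 (adjusted p = 1.71e-05). The muscle genes Tnni2 (−0.36, adjusted p = 0.0141) and Mylpf (−0.31, adjusted p = 0.00452) fell with OSM. The summed myotube markers, Tnni2 among them, were lower with OSM as well. The calls of Ccnd1 and Pax7 with OSM held in all 14 alternatives. The calls of Mybpc2, Flna, Tnni2 and Mylpf were each lost when at least 1 control or OSM library was left out. These are transcript levels and say nothing of how much of each protein was degraded.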

How the data were processed

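RNA was measured in 8 libraries of primary mouse myotubes, 2 in each of 4 groups taken from the sample labels. The values are raw read counts per gene as the authors deposited them, 1 file per library, with replicates not pooled. Per the labels' protocols, libraries were made with a stranded mRNA kit. The submitters' processing notes name Trim Galore 0.6.5, STAR 2.7.3a, HTSeq 0.11.1, DESeq2 1.34.0 and the mouse build GRCm39. The annotation release and HTSeq's strand setting are not given in the sources used here. Reads assigned to no single gene (11.7% to 12.7%) stayed out of library sizes and tests. Symbols and exon lengths come from GENCODE annotation of GRCm38, so no gene coordinates are given apart from the promoter windows, which carry their own build. It gave 52093 of 53647 identifiers a symbol.

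The test for each gene was edgeR's (version 4.0.16, R 4.3.3). Genes passed filterByExpr at a minimum count of 10, libraries were scaled by TMM, and a robust quasi-likelihood fit of the 8 libraries had 4 group means and so 4 residual degrees of freedom. The 6 contrasts were each adjusted over 15603 genes, and SE is that of the log2 change. For the 10 ligase genes counting error is 0.436% to 6.82% of a value, and reads without molecular identifiers carry further error. Replicates differed by more than counting error, with a chi-square per gene of 2.97 to 11.96, and the fitted biological coefficient of variation was 6.42%. The script was tested on simulated data.

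All 10 ligase genes are named. From each list, the called genes with the largest change in OSM against control are named, at most 3 higher and 3 lower, and any other called list gene is marked as named after its values were seen. For Fbxo32 and Trim63 the 5 genes with the most similar levels are named. The members and lists were chosen with earlier results of these data known. The alternatives were DESeq2's size factors, no low-count filter, DESeq2 1.42.0, a replicate block, no robust estimation, only the groups compared, and leaving out each library.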

Additional observations from a re-analysis of the deposited data

How the results depend on the processing

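Across 14 alternatives, the 60 log2 changes of ligase genes kept their side of the threshold and, where called, their direction in 794 of 840 refits, gained a call in 15 and lost one in 31, and no called change reversed. Most of the 60 changes were not called in the reported fit, and only a called change can lose a call. Each call of Fbxo30, Fbxo31 and Fbxo40 was lost in at least 1 alternative, as was that of Fbxo32 in LIF against IL6. The number of ligase genes called moved more. In OSM against control it was 3, became 5 with the replicate block, and ran from 1 to 5 when each library was left out. Leaving out a library gave 1 to 2 in LIF against control, 0 to 1 in IL6 against control, 1 to 4 in OSM against IL6 and 0 to 3 in LIF against IL6. Deviations of same-numbered libraries correlated at 0.0071 to 0.18 between groups. Whether the replicate numbers pair the libraries cannot be settled, as the labels do not say and only 2 numbers exist. The block moved the count over all genes from 0 to 9 in IL6 against control and from 434 to 826 in LIF against IL6.

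Counts over all genes that moved by more than 1.5 times were as follows. Without the low-count filter IL6 against control called 97 genes and LIF against IL6 985, DESeq2 called 19 in IL6 against control, and OSM against LIF called 2928 with only those groups fitted. Leaving out a library gave 1622 to 4067 genes in OSM against control, 316 to 1688 in LIF against control, 0 to 221 in IL6 against control, 437 to 1764 in OSM against LIF, 1105 to 2713 in OSM against IL6 and 82 to 739 in LIF against IL6. A group left with 1 library is assumed to vary like the others. The cause of these shifts was not tested. Among the ligase genes, counting error was largest for Fbxo40, which had the fewest counts.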

Other observations

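Autophagy and lysosome genes, a route of protein breakdown beside the proteasome, were called in part with OSM. Of 17, 5 rose against control, where 10.8% of all tested genes were called higher, and the others did not pass the test, with a median log2 change of 0.12. Lamp2, of the lysosome membrane, went from 359 ± 24.6 to 553 ± 7.66 CPM (SD, n = 2; log2 0.62, adjusted p = 1.36e-05). Ctsl, the cysteine protease cathepsin L, went from 497 ± 8.09 to 712 ± 22.2 CPM (log2 0.52, adjusted p = 6.32e-05). Map1lc3b, an LC3 gene of the autophagosome, went from 133 ± 6.20 to 179 ± 1.92 CPM (log2 0.43, adjusted p = 0.000158). The calls of Lamp2, Ctsl and Map1lc3b held in all 14 alternatives. All 3 were also higher with OSM than with LIF, by 0.25, 0.34 and 0.29, but each of those calls was lost without at least 1 LIF or OSM library. With LIF against control, Lamp2 was the list's called gene (0.37, adjusted p = 0.00353), a call lost without LIF replicate 2. The part of the lower summed myotube markers in these values was not tested.

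Among genes outside the naming rule and named after their values were seen, Des, the desmin gene tied to Trim32, rose with LIF by 0.55 (adjusted p = 0.000181) and with OSM by 0.30 (adjusted p = 0.00411), the latter lost without OSM replicate 1. It was lower with OSM than with LIF (−0.25, adjusted p = 0.0243). Usp28, a deubiquitinase gene, rose with LIF by 0.38 (adjusted p = 0.00129) and was lower with OSM than with LIF (−0.28, adjusted p = 0.00678). Both calls of LIF against control held in all 14 alternatives, and both calls of OSM against LIF were lost when any 1 of the 4 LIF and OSM libraries was left out.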
